A study of Saccharomyces cerevisiae with 15 samples.

Results

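The genes described here are the regulators by which budding yeast represses genes in glucose and senses the sugar: MIG1, MIG2, MIG3, SNF1, SNF4, RGT1, MTH1, STD1, REG1 and GLC7. They were chosen by name among the gene probes of 2 two-colour arrays. Of the 10 names, 9 were found as gene names on the arrays. MIG3 was listed only by its systematic name, YER028C, and was matched through the RefSeq locus tag, so the values below cover 10 of 6256 genes. The series compared strand-specific RNA sequencing methods, and the arrays served as the reference for expression levels. The 13 sequencing libraries were not analysed here.

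All values come from 1 group, BY4741 YPD, with 2 arrays labelled r1 and r2 and called array 1 and array 2 here. BY4741 is a haploid laboratory strain of Saccharomyces cerevisiae that lacks HIS3, LEU2, MET17 and URA3, and YPD is a rich medium with glucose. Total RNA was labelled with Cy3 and hybridised together with Cy5-labelled genomic DNA. That DNA carries the name BY4741 in its source label and the word progenitor in its strain label. Nothing in the labels ties the arrays to separate cultures, and they shared a slide, so all p-values reflect the spread of 2 measurements that may be technical repeats. There was no second medium, so every gene is set against the median gene and not against growth without glucose.

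As background, the Snf1 kinase is the yeast member of the AMP-activated protein kinase family and is active when glucose is scarce. In glucose, the protein phosphatase Glc7, brought to the kinase by Reg1, holds Snf1 inactive, and the zinc finger protein Mig1 stays in the nucleus and represses genes for other carbon sources. A second pathway starts at the membrane sensors Snf3 and Rgt2 and leads to the destruction of Mth1 and Std1, which frees hexose transporter genes from the repressor Rgt1. Both pathways act largely through phosphorylation and protein turnover, which these arrays do not measure.

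The genotype of the strain was visible in both channels. All 4 deleted marker genes lacked usable DNA signal, with a highest intensity of 7.39. All 5 genes specific to mating type a were above the median gene, and all 4 genes specific to mating type alpha were below it. Each gene was read by 1 probe printed as 7 spots, and all 7 spots were kept for each of the 10 regulators. Their RNA lay above the floor of 17.05 on array 1 and 32.9 on array 2, set from negative control spots. The values compared between genes are log2(RNA/DNA) at the probe minus that of the median gene. They are not levels per length of transcript. Each array averages a whole culture, so fewer cells holding a transcript and less of it per cell cannot be told apart.

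The kinase and phosphatase genes stood in the upper part of the distribution and the Mig repressors at or under its middle. A gene was called above or below the median gene at an adjusted p under 0.05 in limma, with Benjamini-Hochberg adjustment over 6250 genes, and a log2 value of at least 1 in size. GLC7, SNF1, REG1 and STD1 were called above, 4 of 10, where 28.2% of all genes were. MIG3 and MTH1 were called below, 2 of 10, where 31.2% of all genes were. The 6 called genes of 10 thus stood beside 59.4% of all genes called either way. SNF4, RGT1, MIG1 and MIG2 were not called. The median of the 10 genes was 0.55, beside -0.002 for all genes. The 10 genes lay between percentiles 22.03 and 92.6 of the distribution, whose values ran from -8.80 to 6.54.

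**Figure D1:**
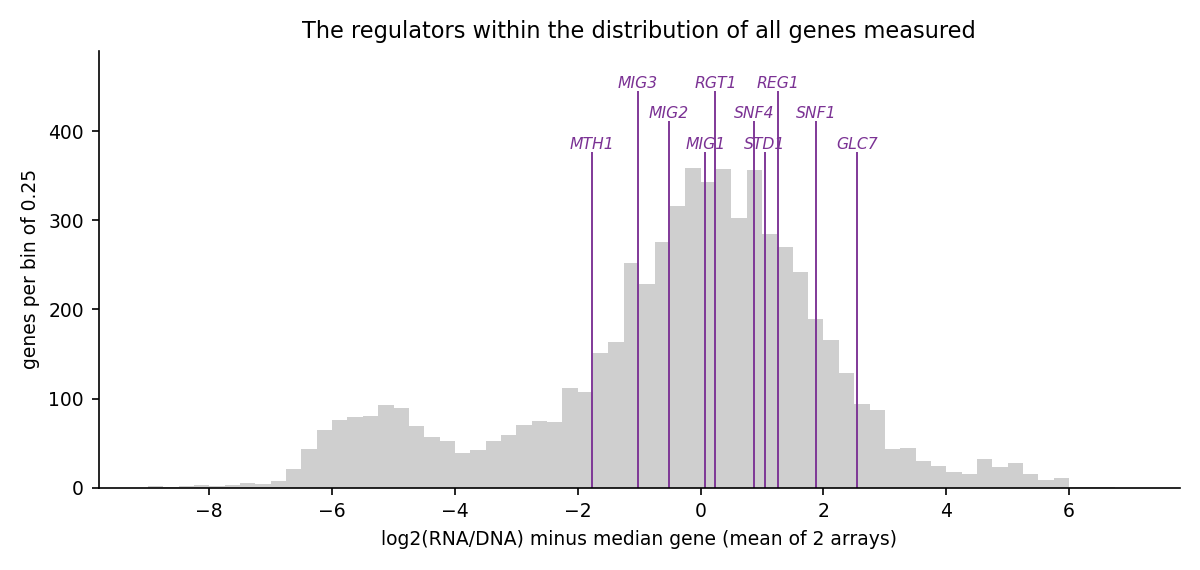
Histogram of log2(RNA/DNA) minus the median gene (x axis, mean of 2 arrays, bins of 0.25) for 6250 genes (y axis, genes per bin), with a vertical line for each regulator. The lines run from MTH1 at -1.77, percentile 22.03 of all genes, to GLC7 at 2.54, percentile 92.6.

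Of the kinase genes, SNF1 (YDR477W) was called above the median gene and SNF4 (YGL115W) fell short of the log2 threshold. SNF1 encodes the catalytic subunit of the Snf1 kinase, and its RNA intensity was 3099 on array 1 and 3688 on array 2, against DNA intensities of 3131 and 3103. Its ratio was 1.83 and 1.93 on the arrays, or 1.88 ± 0.07 (SD, n = 2), which is 3.68 times the median gene (limma adjusted p = 0.000111). SNF4 encodes the activating subunit that relieves autoinhibition of Snf1. Its RNA intensity was 3534 on array 1 and 4495 on array 2, against DNA intensities of 6649 and 7684. Its ratio was 0.88 and 0.85, or 0.86 ± 0.02 (SD, n = 2; limma adjusted p = 0.000259), so it missed the call by its size and not by its p. In the RNA channel alone, SNF4 was called above at 1.67 (limma adjusted p = 8.57e-05) and STD1 was not called, so the 4 regulators then above held SNF4 in place of STD1. SNF1 and SNF4 had much the same RNA signal, but the SNF4 probe had more DNA signal than the SNF1 probe on both arrays.

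SNF1 exceeded SNF4 by 0.96 on array 1 and 1.08 on array 2, with no overlap between their array values. With the RNA channel alone, the difference SNF1 minus SNF4 was -0.24. The order of these 2 genes therefore depended on division by the DNA signal. The DNA signal stood at percentile 23.3 of all genes for SNF1 and 83.5 for SNF4. What sets these DNA signals was not tested.

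The other genes of the kinase had lower ratios than SNF1 on both arrays. SNF1 stood at percentile 86.2 of all genes in ratio, so most genes of any kind were lower too. The list held the 3 alternative scaffold subunits and the 3 kinases that activate Snf1. None of these 6 was called above, where 28.2% of all genes were, and 2 were called below, a share near the 31.2% of all genes below. The list median was -0.50. Of the scaffold subunits, SIP1 was at -0.02 ± 0.01 and GAL83 at -0.19 ± 0.15, both not called, and SIP2 was called below at -1.70 ± 0.03 (SD, n = 2 each). With the RNA channel alone, SIP1 was at 0.35 and GAL83 at 0.95. Of the activating kinases, SAK1, listed on the arrays under its older name PAK1, was highest at 0.71 ± 0.07. ELM1 was at -0.80 ± 0.00 and TOS3 was called below at -1.63 ± 0.05. SNF1 exceeded all of these genes in ratio, with SAK1 the nearest.

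**Figure D2:**
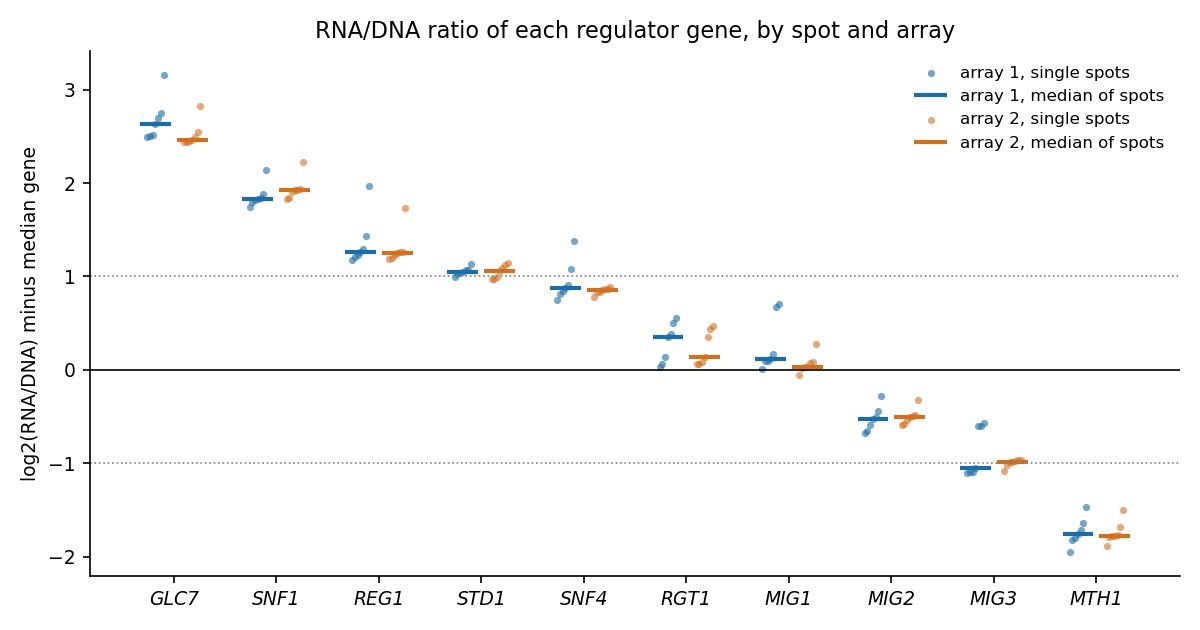
Log2(RNA/DNA) minus the median gene (y axis) for the 10 regulator genes (x axis), as single spots (points, 7 per array) and their median (bars) on array 1 (blue) and array 2 (orange), with dotted lines at -1 and 1. Array medians of neighbouring genes do not overlap, and single spots stand above the rest in several genes, such as the REG1 spots at 1.97 and 1.73.

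GLC7 and REG1 were both called above the median gene, with GLC7 the highest of the 10 regulators. GLC7 (YER133W) encodes the catalytic subunit of type 1 protein phosphatase, which serves glycogen metabolism, mitosis and other processes besides glucose repression. Its RNA intensity was 9663 on array 1 and 10853 on array 2, against DNA intensities of 5519 and 5883. Its ratio was 2.63 and 2.46, or 2.54 ± 0.12 (SD, n = 2), which is 5.83 times the median gene (limma adjusted p = 0.000118). REG1 (YDR028C) encodes the subunit that directs Glc7 to the Snf1 kinase. Its RNA intensity was 3153 on array 1 and 3884 on array 2, against DNA intensities of 4255 and 4909. Its ratio was 1.26 and 1.25, or 1.26 ± 0.01 (SD, n = 2; limma adjusted p = 0.000126). GLC7 exceeded REG1 by 1.37 on array 1 and 1.20 on array 2, or 1.28 ± 0.12, a factor of 2.44 in ratio.

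The other partners of Glc7 covered a wide range. Of 15 listed genes, 4 were called above, 6 below and 5 were not called, with a list median of -0.07. These shares lay near those of all genes, 28.2% above and 31.2% below, so the counts do not set the partners apart. GLC7 had a higher ratio than each of the 15 on both arrays, but at percentile 92.6 it also exceeded most genes of any kind. REG2, the paralog of REG1, was called below at -5.11 ± 0.02, which put REG1 higher by 6.39 on array 1 and 6.35 on array 2, a factor of 82.5 in ratio. This was the widest gap between a regulator and its paralog among the pairs compared. Several glycogen-targeting subunits were also called below, with GIP2 at -4.12 ± 0.12 and PIG1 at -2.05 ± 0.08. Another of them, GAC1, was at the RNA floor on each array, which gives a ratio of at most -4.74. PIG2, the paralog of GIP2, was at 0.14 ± 0.07 and not called, and at -0.28 with the RNA channel alone. GIP1, which acts in spore formation, was called below at -1.87 ± 0.02, and so was GIP4, listed as FUN21, at -1.38 ± 0.01. GIP4 was at -0.68 and not called in the RNA channel alone, which left 5 partners below.

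The partners called above were GLC8 at 1.51 ± 0.10, GIP3 at 1.22 ± 0.06, SHP1 at 1.104 ± 0.03 and YPI1 at 1.098 ± 0.01 (SD, n = 2 each). Glc8 and Ypi1 bind and modulate the catalytic subunit, and Shp1 also works with the AAA ATPase Cdc48. With the RNA channel alone, GIP3 and YPI1 fell short of the threshold at 0.47 and 0.335, and without genes at the floor YPI1 and SHP1 fell short at 0.90 and 0.91. Near the median gene were SDS22, a nuclear regulator of Glc7, at -0.02 ± 0.01, BNI4 of the bud neck at -0.07 ± 0.04, BUD14 at 0.02 ± 0.02 and REF2 at -0.33 ± 0.03. These 4 were not called.

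The Mig repressors formed a series in which MIG1 was above MIG2 and MIG2 above MIG3 on both arrays. MIG1 (YGL035C) encodes the main glucose repressor, which binds GC boxes and recruits the corepressor Cyc8-Tup1. Its RNA intensity was 1977 on array 1 and 2204 on array 2, against DNA intensities of 5815 and 6522. Its ratio was 0.12 and 0.03, or 0.08 ± 0.06 (SD, n = 2; limma adjusted p = 0.158). MIG1 was the only regulator of the 10 with an adjusted p above 0.05, where 94.3% of all genes had one under it. It was at -0.12 when genes at the floor were left out, which moves the median gene, and at 0.73 with the RNA channel alone.

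MIG2 (YGL209W) and MIG3 (YER028C) encode related zinc finger repressors, and both genes are known to be induced by glucose through loss of Rgt1 repression. The RNA intensity of MIG2 was 1123 on array 1 and 1336 on array 2, against DNA intensities of 5453 and 6061. Its ratio was -0.52 and -0.51, or -0.52 ± 0.01 (SD, n = 2; limma adjusted p = 0.000832), and it was not called. The RNA intensity of MIG3 was 519 on array 1 and 659 on array 2, against DNA intensities of 3707 and 3982. Its ratio was -1.05 and -0.99, or -1.02 ± 0.04 (SD, n = 2; limma adjusted p = 0.00024), which is 0.493 times the median gene. MIG3 was the lowest of the 3 on both arrays and lay close to the threshold. It was no longer called with the mean over spots, at -0.97, or with no background subtraction, at -0.98, and its value on array 2, -0.99, was by itself short of the threshold.

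MIG1 exceeded MIG2 by 0.64 on array 1 and 0.54 on array 2, or 0.59 ± 0.07. MIG2 exceeded its paralog MIG3 by 0.53 and 0.48, or 0.50 ± 0.03 (SD, n = 2 each). These differences are larger than the spread between arrays, and both kept their direction with the RNA channel alone, at 0.77 and 1.07. Single spots of MIG2 and MIG3 overlapped on array 1 but not on array 2. No test of the differences between regulators was run.

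The genes next to MIG2 and MIG3 in the RefSeq annotation are themselves a pair of paralogs. SIP2 adjoins MIG2 and GAL83 adjoins MIG3, and both encode scaffold subunits of the Snf1 kinase. The difference MIG2 minus SIP2 was 1.18 ± 0.02 and the difference MIG3 minus GAL83 was -0.82 ± 0.19 (SD, n = 2 each), so MIG2 was higher than its neighbour and MIG3 lower than its own. The paralogs thus stood in opposite order in the 2 pairs: MIG2 was above MIG3, and GAL83 above SIP2.

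The corepressor genes, HXK2 and the NRG repressor genes, taken as 1 list, lay on both sides of the median gene. Of 5 listed genes, 2 were called above and 1 below, beside 28.2% and 31.2% of all genes, and so few genes do not stand apart from these shares. The list median was 0.72. HXK2, the main hexokinase in glucose and a nuclear partner of Mig1, was called above at 2.83 ± 0.02. CYC8 and TUP1, the corepressor subunits, were at 1.20 ± 0.03 and 0.72 ± 0.05, with only CYC8 called. With the RNA channel alone, TUP1 was called above at 2.13. NRG1, a repressor inhibited by Snf1, was called below at -1.60 ± 0.05, and its relative NRG2 was not called at 0.45 ± 0.01.

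**Figure D3:**
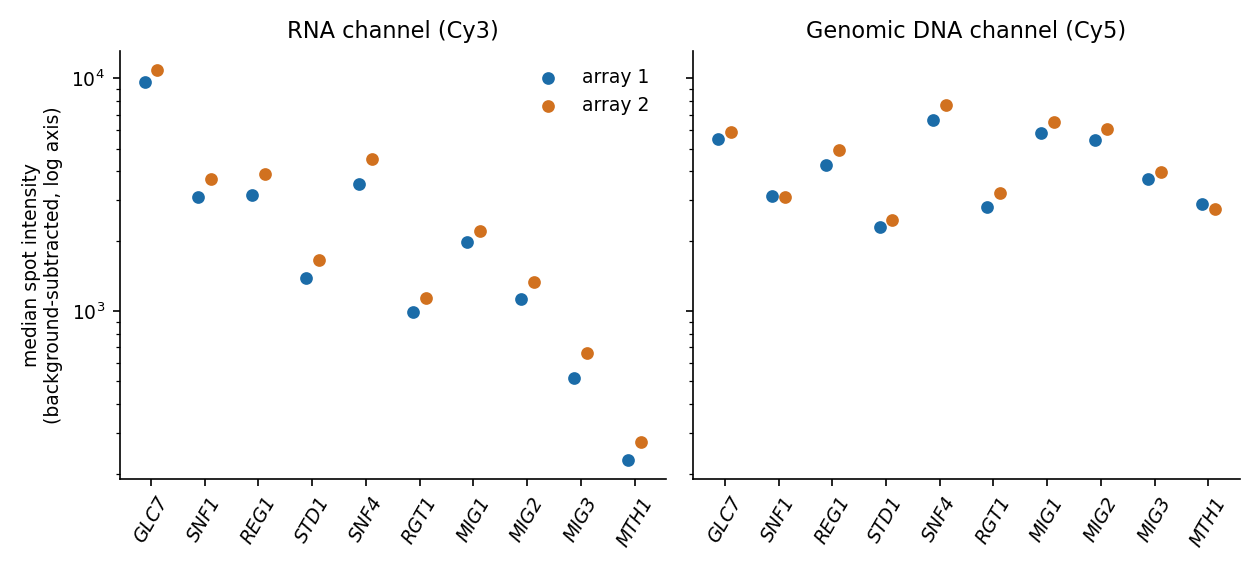
Median background-subtracted spot intensity (y axis, log scale) of the 10 regulator genes (x axis, in order of RNA/DNA ratio) in the RNA channel (left) and the DNA channel (right) on array 1 (blue) and array 2 (orange). RNA intensities span 230.4 to 10853, while DNA intensities stay between 2307 and 7684.

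RGT1 was not called, and MTH1 and STD1, whose products act with Rgt1, lay on opposite sides of the median gene. RGT1 (YKL038W) encodes the zinc cluster protein that represses hexose transporter genes. Its RNA intensity was 993 on array 1 and 1142 on array 2, against DNA intensities of 2807 and 3212. Its ratio was 0.35 and 0.13, or 0.24 ± 0.15 (SD, n = 2; limma adjusted p = 0.048). RGT1 had the largest difference between arrays of the 10 genes, and its value was -0.24 with the RNA channel alone.

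MTH1 (YDR277C) and STD1 (YOR047C) are paralogs whose products bind Rgt1 and hold it in its repressing form. The RNA intensity of MTH1 was 230.4 on array 1 and 274 on array 2, against DNA intensities of 2881 and 2761. Its ratio was -1.76 and -1.78, or -1.77 ± 0.01 (SD, n = 2; limma adjusted p = 7.98e-05), which is 0.294 times the median gene and the lowest of the 10. The MTH1 gene is known to be repressed by glucose through Mig1 and Mig2. The RNA intensity of STD1 was 1385 on array 1 and 1654 on array 2, against DNA intensities of 2307 and 2471. Its ratio was 1.04 and 1.05, or 1.05 ± 0.01 (SD, n = 2; limma adjusted p = 0.000174), which is 2.07 times the median gene.

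MTH1 was lower than STD1 on both arrays, with a difference MTH1 minus STD1 of -2.80 on array 1 and -2.83 on array 2, or -2.82 ± 0.02 (SD, n = 2). The ratio of MTH1 was thus 0.142 times that of STD1. This difference kept its direction with the RNA channel alone, at -2.59. The DNA signal of STD1 was low, at percentile 9.50 of all genes. STD1 was at 0.27 with the RNA channel alone and at 0.85 without genes at the floor, and was called under neither.

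Most of the genes upstream of Rgt1 were called above the median gene, but neither sensor was. Of 8 listed genes, 5 were called above, beside 28.2% of all genes, and 1 below, beside 31.2%, with a list median of 1.22. The casein kinases that mark Mth1 and Std1 were called above, with YCK1 at 1.66 ± 0.00 and YCK2 at 1.37 ± 0.01. So were 3 genes of the ubiquitin ligase that acts on the marked proteins: GRR1, its F-box protein, at 1.13 ± 0.01, CDC53, its scaffold, at 1.63 ± 0.05 and CDC34, its conjugating enzyme, at 1.32 ± 0.01 (SD, n = 2 each). GRR1 fell short of the threshold at 0.52 in the RNA channel alone, and at 0.94 when genes at the floor were left out. SKP1, the adaptor of the ligase, was at 0.95 ± 0.01 and not called, but in the RNA channel alone it was called above at 2.33. The sensor SNF3, which responds to low glucose, was called below at -2.48 ± 0.05, and its paralog RGT2, which responds to high glucose, was not called at -0.40 ± 0.14.

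Except for RGT1 and MIG1, neighbours in the order of the 10 regulators differed in ratio by more than the spread between arrays. The order was GLC7, SNF1, REG1, STD1, SNF4, RGT1, MIG1, MIG2, MIG3 and MTH1 from high to low, and in all 9 neighbouring pairs the array values did not overlap. The narrowest separation was between RGT1 and MIG1, whose difference was 0.23 on array 1 and 0.10 on array 2. Their mean difference, 0.17, was smaller than the change of RGT1 itself between arrays, from 0.35 to 0.13. That gap was 1.08 times the larger of the SDs over arrays, and it was the only one of 9 where the single spots overlapped on both arrays. On array 1 alone, spots also overlapped between SNF1 and REG1, between STD1 and SNF4, and between MIG2 and MIG3. The order was the same with gradient-corrected signals, no background subtraction, the mean over spots, no spot filter and a floor of 2 SD. With the mean over spots, though, the array values of RGT1 and MIG1 overlapped, which left 8 of 9 neighbouring pairs apart. With the RNA channel alone it was GLC7, SNF4, REG1, SNF1, MIG1, STD1, MIG2, RGT1, MIG3 and MTH1, so that GLC7 stayed at the top and MIG3 and MTH1 at the bottom.

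**Figure D4:**
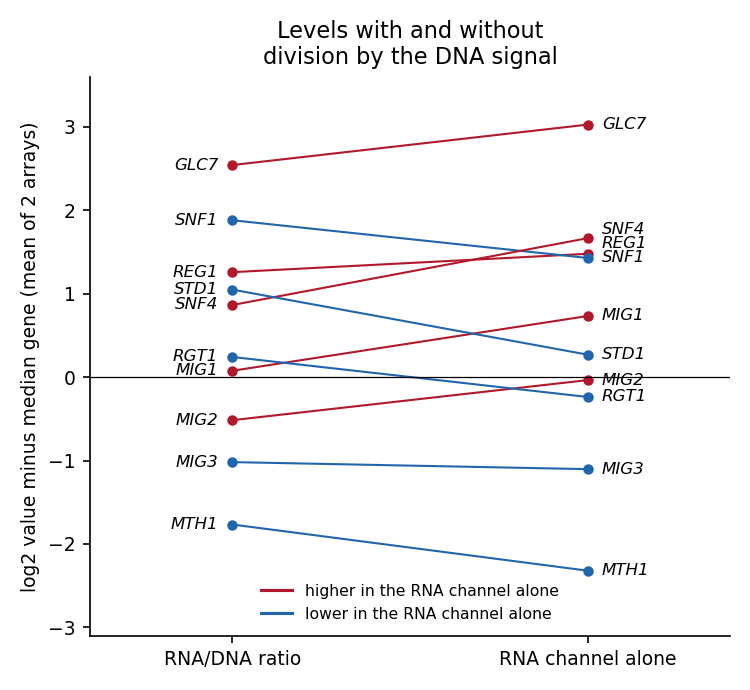
Log2 value minus the median gene (y axis, mean of 2 arrays) of each regulator as the RNA/DNA ratio (left) and in the RNA channel alone (right), with red lines for genes higher and blue lines for genes lower in the RNA channel alone. SNF4 and SNF1 change places, at 1.67 and 1.43 on the right, and STD1 comes down to 0.27.

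The genes that these regulators act on were set beside them from 3 lists. Like the other lists, these were chosen with earlier results of these data known. Their counts therefore describe the listed genes only and are not independent of the values. Of 10 genes listed as repressed by glucose, 9 were called below, beside 31.2% of all genes, and 1 above, beside 28.2%. The list median was -2.74, and the list does not hold every gene that glucose represses. The regulatory gene GAL4 was at -4.95 ± 0.03, the galactokinase gene GAL1 at -2.002 ± 0.03, the gluconeogenic genes PCK1 and FBP1 at -2.87 ± 0.00 and -2.61 ± 0.06, and the lactate permease gene JEN1 at -3.42 ± 0.21. Also called below were GAL3 at -3.165 ± 0.27, ADH2 at -2.87 ± 0.05, ICL1 at -2.61 ± 0.08 and HXK1 at -1.66 ± 0.04. The RNA intensities of GAL4, GAL3 and JEN1 were low, between 46.7 and 74.7, against floors of 17.05 on array 1 and 32.9 on array 2. SUC2, which encodes invertase and is a classical Mig1 target, was called above at 1.13 ± 0.01, but fell short at 0.60 in the RNA channel alone and at 0.94 when genes at the floor were left out. MTH1, itself under glucose repression, at -1.77 was higher than 8 of the 9 listed genes called below, HXK1 being the exception.

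Of the 5 transcription activators under Snf1 control, 3 were called below, beside 31.2% of all genes, and none above, beside 28.2%, with a list median of -1.33. SIP4 was at -4.44 ± 0.21 and CAT8 at -3.44 ± 0.15, both activators of gluconeogenic genes, and RDS2 was at -1.33 ± 0.30. The RNA signals of SIP4 and CAT8 lay near the floors of 17.05 on array 1 and 32.9 on array 2. They were 30.6 and 37.9 for SIP4, and 39.2 and 55.0 for CAT8. ADR1 and HAP4 were not called, at -0.77 ± 0.03 and -0.46 ± 0.16, but ADR1 reached -1.63 in the RNA channel alone and was then called below. Of 4 hexose transporter genes repressed by Rgt1, 3 were called above, beside 28.2% of all genes, with HXT2 at 2.39 ± 0.01, HXT1 at 2.06 ± 0.01 and HXT3 at 1.79 ± 0.02 (SD, n = 2 each). HXT4 was not called at 0.34 ± 0.07, and with the RNA channel alone it was called below, at -1.63. Hexose transporter genes are similar in sequence, so their probes may share signal.

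**Figure D5:**
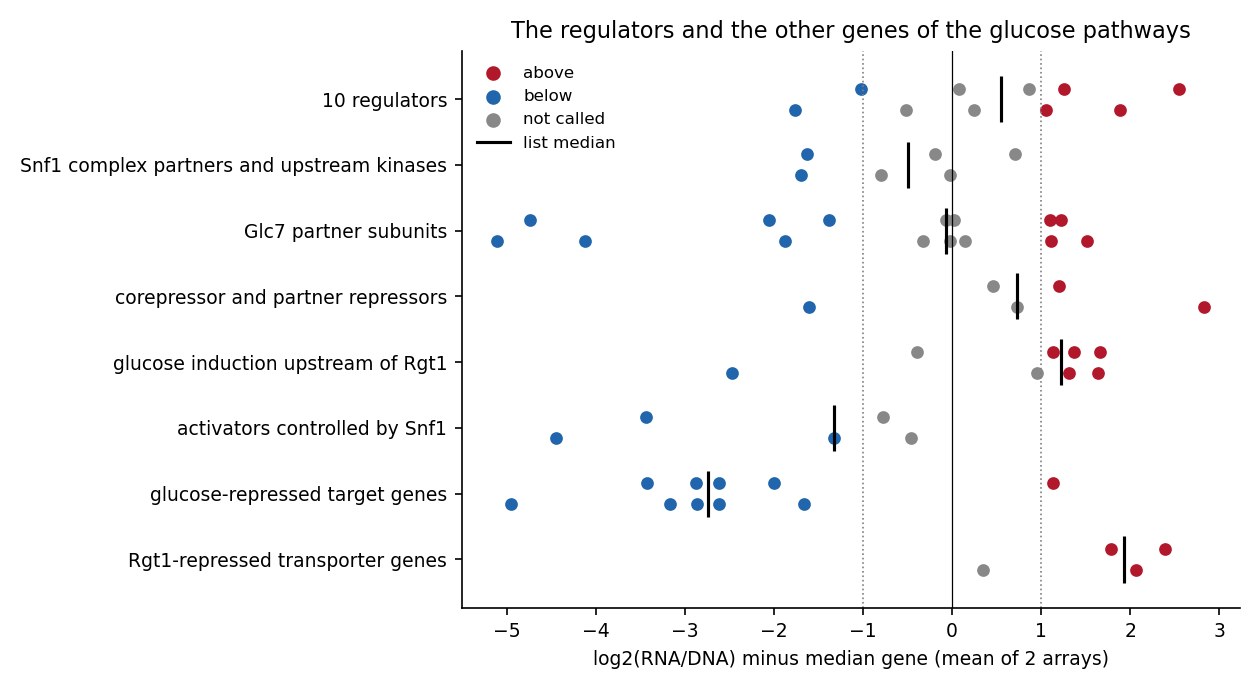
Log2(RNA/DNA) minus the median gene (x axis, mean of 2 arrays) of the 10 regulators (top row) and of 7 lists of pathway genes, one point per gene, coloured by call, with the list median as a black bar and dotted lines at -1 and 1. The regulators lie between -1.77 and 2.54, and the glucose-repressed targets have the lowest list median, -2.74. The lists were chosen with earlier results of these data known.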

How the data were processed

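The submitters' processing notes name Agilent Feature Extraction 10.5.1.1. Per the file headers, the authors subtracted a fitted spatial background from each spot intensity, and these background-subtracted intensities are the values used. The authors' multiplicative detrend surface, a ratio per spot, describes intensity gradients over the array, per the file headers, and gradient-corrected signals are the authors' processed intensities. The genome build was not given in the sources used here, and no coordinates are printed. Names came from the files or, for genes listed by systematic name or an older name, from RefSeq locus tags (assembly R64), which matched 5756 of 6256 genes.

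Spots with DNA well above background on both arrays, and neither saturated nor non-uniform in either channel, were used. This kept 43721 of 43792 gene spots and 6250 genes. The RNA floor was 3 SD of the 153 negative controls, and lower intensities were raised to it. For each array, log2(RNA/DNA) was taken as the median of a gene's spots and centred on the median gene, whose RNA intensities were 1135 and 1390 and whose DNA intensities were 4184 and 4558. Having only 2 arrays limits all precision. An intercept-only limma fit (version 3.58.1, R version 4.3.3) with Benjamini-Hochberg adjustment set each gene against the median gene. On simulated data it called 96% of genes shifted by 1.4 on the log2 scale. Genes without a set shift were drawn there close to the median gene, under the size threshold. Their rate of calls, 0.0992%, therefore cannot give the rate of false calls in the real data. Python 3.11.15 and pandas 2.3.3 served for the rest.

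The members and the pathway lists were chosen with earlier results of these data known. All 10 regulators and every gene of the lists were named. No gene of similar pattern was sought, because 1 condition holds no pattern. Alternatives changed the signal, background, channel, spot summary, spot filter, floor, normalization, limma prior, threshold and arrays.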

Additional observations from a re-analysis of the deposited data

How the results depend on the processing

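Only 2 arrays from the same slide and 1 probe per gene limit every value, and the DNA signal of a probe enters every ratio. Of 63 regulators and list genes, all kept direction and call with gradient-corrected signals, no spot filter, a floor of 2 SD, a robust floor, quantile normalization and limma with trend. Where they differ below, the cause was not tested unless the setting itself gives it (another threshold, or a moved median gene).

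With a log2 threshold of 2, 774 genes were above and 1278 below, with 1 regulator above and 0 below. Under it the lists had 0 Snf1 partners below, 0 Glc7 partners above, 1 corepressor gene above and 0 below, 0 genes upstream of Rgt1 above and 0 repressed targets above. With the adjusted p alone, 2944 genes were above and 2952 below, with 1 Snf1 partner above, 4 corepressor genes above, 2 genes upstream of Rgt1 below and 5 activators below. Regulators called below were 1 with no background subtraction, where 1903 of 6250 genes were, and 1 with the mean over spots, where 1943 were. On single arrays, where no test is possible, they were 1 to 2, beside 1935 genes without array 1 and 1956 without array 2. Without array 1, MIG3 was lost. With the RNA channel alone, 1805 of 6250 genes were above and 1868 below. Among them, 2 Glc7 partners and 0 repressed targets were above, and 5 Glc7 partners and 1 transporter gene below. Leaving out genes at the floor raised the median gene by 0.196 on array 1 and 0.194 on array 2. It left 2 Glc7 partners and 0 repressed targets above, where 1544 of 5702 genes were.

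Values changed sign for MIG1 (-0.12), PIG2 (-0.0502) and BUD14 (-0.175) without genes at the floor, for SDS22 with the mean over spots (0.0263), and with the RNA channel alone for RGT1 (-0.24), SIP1 (0.35), GAL83 (0.95), PIG2 (-0.28), SDS22 (0.28), BNI4 (0.0603), REF2 (0.0668) and HXT4 (-1.63). MIG2 minus MIG3 was 0.59 with gradient-corrected signals, 1.07 with the RNA channel alone and 0.42 with the mean over spots. MIG1 minus MIG2 was 0.77 with the RNA channel alone and 0.68 with the mean over spots. MTH1 minus STD1 was -2.775 with gradient-corrected signals, -2.67 with no background subtraction, -2.59 with the RNA channel alone and -2.79 with the mean over spots. GLC7 minus REG1 was 1.55 and SNF1 minus SNF4 was -0.24 with the RNA channel alone. On single arrays the count of neighbours without overlap cannot be given.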

Other observations

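Single spots of the same probe stood apart at the same place on both arrays, a pattern noticed after the values were seen. In 5 of the 10 regulators (GLC7, SNF1, REG1, MIG2 and MTH1) the spot with the highest RNA/DNA ratio had the same row and column on both arrays. Among the 5702 genes whose RNA exceeded the floor on each array this held for 38.2%. For REG1 the spot in row 430 and column 5 exceeded the median of the gene's spots by 0.71 on array 1 and 0.48 on array 2 on the log2 scale. For GLC7 the spot in row 510 and column 11 exceeded it by 0.53 and 0.37. With gradient-corrected signals the highest spot was shared by 3 of the 10 regulators and by 23% of the 5702 genes. The median excess of the highest spot of the regulators on array 1 was then 0.14, beside 0.39 without the correction. The DNA signal of that spot lay 0.49 below the gene's own median on the log2 scale (a median deviation of -0.49) without the correction and 0.04 below it (-0.0396) with it. The 5702 genes had a similar median excess on array 1, 0.1356 with the correction and 0.36 without. Their median DNA deviation was -0.0202 with it and -0.28 without. MIG3, whose call was lost with the mean over spots, had 3 spots on array 1 within 0.1 of its highest, -0.57, against a median of -1.05.

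The genes beside the regulators in the RefSeq annotation had ratios of their own. The neighbours of MTH1 were PMP3, called above at 3.34 ± 0.06, and RNH202, not called at 0.20 ± 0.03. Those of STD1 were DBP5, called above at 2.24 ± 0.06, and RAT1, not called at 0.92 ± 0.03. SNF1, at 1.88, lay between YDR476C, not called at -0.51 ± 0.08, and SNM1, called below at -1.20 ± 0.03. GLC7, at 2.54, lay between PMD1, not called at -0.46 ± 0.01, and YER134C, not called at 0.85 ± 0.04 (SD, n = 2 each). No protein-coding neighbour overlapped a regulator in that annotation.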
